A study of Mus musculus with 300 samples.

Results

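The 85 transcripts described here were those whose liver level was higher in the inbred mouse strain MRL/MpJ (MRL) than in SM/J (SM) in both sexes. They were chosen by measured values from 34406 transcripts: every MRL male lay above every SM male and every MRL female above every SM female, the mean of MRL exceeded the mean of SM by at least 0.8 on the log2 scale, and the male and female means of the F2 intercross animals differed by less than 0.5. The first condition alone held for 1449 transcripts and the first 2 for 106, of which 18 were dropped for their F2 sex difference and 3 by identifier. The files carry Ensembl transcript identifiers and pair none of them with a gene, and the gene table used here lists none of them, so the members are named by identifier and no gene role, marker list or sequence is given.

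MRL/MpJ is a large-bodied inbred strain known for the closure of ear wounds and for autoimmunity, and SM/J was bred for small body size. MRL animals were crossed with SM sires to give F1 animals, and F1 animals were intercrossed to give F2 animals. The study compared 147 F2 males and 135 F2 females with 3 males and 3 females each of F1, MRL and SM, 1 liver and 1 Affymetrix Mouse Gene 1.0 ST array per animal, to map the genetics of expression. All groups were untreated, 13 weeks old, kept on chow, housed singly for 3 days and fasted for at least 4 hours before collection. Animals of 1 sex within an inbred strain, or within the F1 of a pair of inbred strains, share a genotype. Their spread within a group holds no segregation, whereas F2 animals differ from one another at loci where the strains differ. An F1 level midway between the parents is called additive, and an F1 level near a parent is called dominant for that parent. In bulk liver RNA, fewer cells of a type and less RNA per cell cannot be told apart.

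The deposited log2 values ran from 4.66 to 13.60. The arrays were labelled with 14 batches of 2 to 25 arrays, and the 18 F1, MRL and SM animals were spread over 10 of them. Over 116 transcripts with a sex difference, libraries were scored on a scale where -1 is the mean female and 1 the mean male. Signed toward the labelled sex, 5 libraries scored under 0.4, called a low score here. The library labelled F1 male 1146 scored -0.91, among the females. The others lay between the sexes, at -0.11 for 1 F2 male and -0.09, -0.11 and -0.39 for 3 F2 females. Several counts and medians are also given without these libraries. Levels of single animals include them, and in each list of 3 F1 males the library labelled 1146 comes first. The SD of all values of an array, called array spread here, averaged 1.26 in F1 males, 1.31 in F1 females, 1.30 in MRL males, 1.24 in MRL females, 1.26 in SM males and 1.27 in SM females.

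The strain difference that chose the members ran from 0.80 to 2.23 (log2, median 1.00), that is, 1.74-fold to 4.69-fold, and 41 of the 85 reached 1. It was larger in males than in females for 47 members. In 82 members the lowest MRL animal of either sex lay above the highest SM animal of either sex. The rule had already separated the strains within each sex, so nothing is read from this count. Its share over all transcripts was not taken. All 85 passed limma's test of MRL minus SM at an adjusted p of 0.05, beside 6.08% of all transcripts that passed it with MRL higher, but the rule used this contrast and nothing is read from the count. Within the 3 batches that held both strains, the median MRL minus SM difference over the members was 1.04, 0.96 and 0.88. These medians rest on 1 or 2 animals of each strain per batch. The rule used the same animals, so the medians are a description only. At the threshold, ENSMUST00000002846_at (0.8012) and ENSMUST00000059255_at (0.8052) lay just inside, and ENSMUST00000029400_at (0.7991) and ENSMUST00000109822_at (0.7978) just outside.

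The greatest difference belonged to ENSMUST00000100285_at, which measured 10.93, 11.20 and 10.90 in MRL males and 11.42, 11.13 and 11.08 in MRL females, against 8.18, 8.83 and 8.55 in SM males and 9.55, 10.05 and 8.11 in SM females. The strains did not overlap, but the SM females ran from 8.11 to 10.05, with SM female 3 lowest. The next, ENSMUST00000026924_at, measured 9.72, 9.84 and 9.83 in MRL males and 9.68, 9.63 and 9.56 in MRL females, against 7.28, 7.66 and 7.32 in SM males and 7.48, 7.59 and 7.91 in SM females. Both strains were tight for this transcript, with SDs of 0.060 to 0.065 in the MRL groups and 0.207 to 0.222 in the SM groups (n = 3 each).

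**Figure D1:**
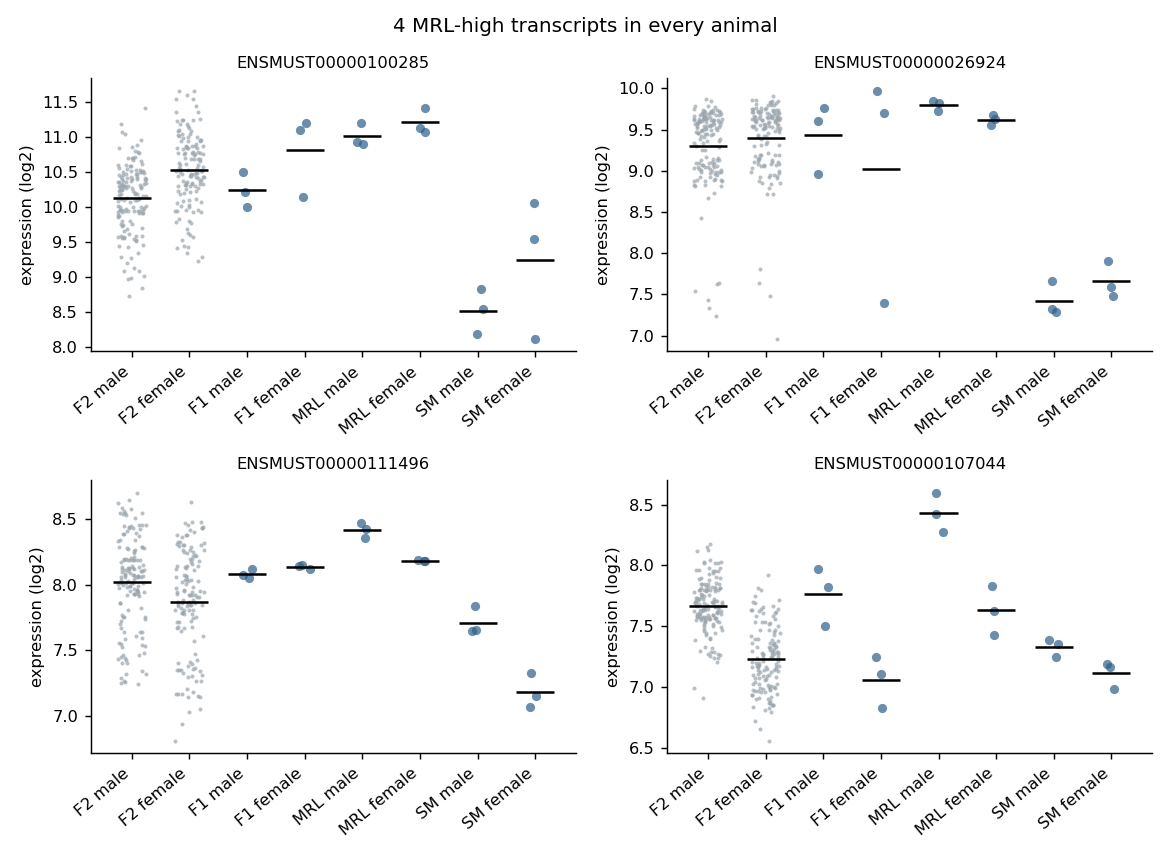
Expression (log2, vertical axis) of 4 members in each animal of the 8 groups (horizontal axis); each point is 1 animal and each bar a group mean. Averaged over the sexes, F1 lies between MRL and SM in each. The F2 animals of ENSMUST00000111496_at cover a wider range than any F1, MRL or SM group. A range widens with the number of animals, here 147 F2 males and 135 F2 females against 3 per other group.

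The F1 animals, which the choice of members did not use, lay between the parents for every member when the sexes were averaged. The F1 position (SM mean at 0, MRL mean at 1) ran from 0.24 to 0.93 with a median of 0.62 and quartiles of 0.48 and 0.74. It was above the midpoint in 61 of the 85 members, above 0.75 in 18 and below 0.25 in 1, and it was in no member outside the parental means. The 61 were 46 distinct profiles when rows correlated at 0.95 or more in F2 are counted once. Members also moved together in blocks described below, so these are not counts of independent rows. No share over all transcripts is given for them. By sex, the median F1 position was 0.54 in males (0.20 to 0.94) and 0.69 in females (-0.11 to 1.09). In females alone, F1 thus lay outside the parental means in some members. The median position of F2, whose autosomal alleles also come equally from both strains, was 0.57 (0.23 to 0.83). With SM sires this does not hold for the X chromosome. The chromosome of each member was not known, so X-linked members could not be set apart in the F1 and F2 positions. Over the members the median difference between F1 and the mean of the parents was 0.12 (log2), against -0.01 over all 34406 transcripts. The parental values that chose the members enter this difference and the F1 position, so the comparison is a description only.

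Single F1 animals varied more than the group mean shows. All 6 F1 animals lay strictly between the MRL and SM ranges for 5 members. At least 1 F1 animal reached the MRL range for 67 members, and at least 1 reached the SM range for 57. These ranges were pooled over the sexes and stood apart in 82 members, so in the rest no F1 animal could lie between them. The shares over all transcripts were not taken, and nothing is read from these counts. By animal, the median position over the members was 0.63, 0.58 and 0.55 in F1 males 1146, 1151 and 1152, and 0.68, 0.57 and 0.69 in F1 females 1145, 1149 and 1150. In the 1 batch that held an F1 animal together with both strains, the median position was 0.70, from 1 F1 female, with the F2 sex difference removed. Without the library labelled F1 male 1146 the median position over all F1 animals was 0.62.

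**Figure D2:**
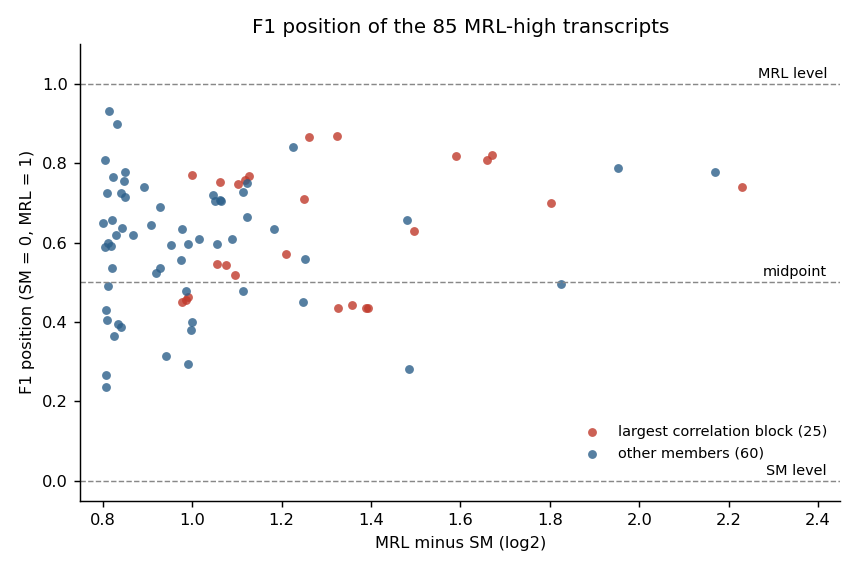
F1 position of each of the 85 members (vertical axis, SM mean = 0 and MRL mean = 1) against its MRL minus SM difference (horizontal axis, log2); red points are the 25 members of the largest F2 correlation block and blue points the other 60. With the sexes averaged, all members lie between 0.24 and 0.93, and 61 (46 distinct profiles) lie above the midpoint.

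The highest F1 positions were those of ENSMUST00000050487_at (0.93) and ENSMUST00000097563_at (0.90), a pair of rows with an F2 correlation of 0.999. ENSMUST00000050487_at measured 8.28, 7.79 and 7.34 in F1 males and 7.73, 7.91 and 8.17 in F1 females. It measured 7.75, 8.01 and 7.85 in MRL males, 8.04, 7.99 and 7.92 in MRL females, 6.51, 7.06 and 6.85 in SM males, and 7.19, 7.79 and 7.27 in SM females. The F1 males ran from 7.34, below the highest SM animal, to 8.28 in the library labelled F1 male 1146, above every MRL animal. The strains overlapped when the sexes were pooled. F1 exceeded the parental mean by 0.35 ± 0.12 (SE), which did not pass limma's test (adjusted p = 0.388).

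The lowest positions were those of ENSMUST00000107044_at (0.24) and ENSMUST00000015234_at (0.27). ENSMUST00000107044_at measured 7.50, 7.97 and 7.82 in F1 males, against 8.42, 8.27 and 8.60 in MRL males and 7.39, 7.25 and 7.35 in SM males. In females it measured 6.83, 7.11 and 7.25 in F1, against 7.63, 7.83 and 7.43 in MRL and 6.99, 7.19 and 7.17 in SM, so that F1 and SM females overlapped. ENSMUST00000015234_at differed between the strains by 0.36 in males and 1.26 in females, and its F1 females (6.92, 7.22 and 7.22) lay near the SM females (7.08, 6.89 and 7.00), against 8.27, 8.51 and 7.96 in MRL females. The F1 minus parental mean difference was -0.21 ± 0.08 and -0.19 ± 0.08 (SE) for these 2 transcripts, and neither passed the test over both sexes (limma, adjusted p = 0.4005 and 0.456).

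Over both sexes, 2 of the 85 members passed limma's test of F1 minus the parental mean (Benjamini-Hochberg adjusted p under 0.05 over all transcripts), beside 0.0378% of all transcripts, both with F1 higher. They were ENSMUST00000059255_at, higher by 0.25 ± 0.04 (SE), and ENSMUST00000111496_at, higher by 0.23 ± 0.04, each with an adjusted p of 0.0497. At an unadjusted p under 0.05 there were 32 members (37.6%), beside 9.49% of all transcripts. The parental values that chose the members also enter this contrast. Its comparison with all transcripts, here and by sex below, is therefore a description only. Both called rows belong to a set of 4 nearly identical rows and are close to 1 measurement. Neither passed once the batch effects estimated in F2 or the slope on array spread were subtracted, or with the arrays centred or quantile-normalized again, and leaving out 1 animal at a time gave 0 to 4 calls, with 0 without F1 male 1146.

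ENSMUST00000059255_at measured 7.86, 7.88 and 7.76 in F1 males, against 8.18, 8.19 and 8.15 in MRL males and 7.41, 7.41 and 7.60 in SM males. Its F1 males lay near the middle of the strains. In females it measured 7.95, 7.92 and 7.92 in F1, against 7.90, 7.89 and 7.91 in MRL and 6.89, 6.92 and 7.17 in SM, so every F1 female was above every MRL female. ENSMUST00000111496_at measured 8.07, 8.12 and 8.05 in F1 males and 8.11, 8.15 and 8.14 in F1 females, against 8.42, 8.47 and 8.35 in MRL males, 8.18, 8.18 and 8.19 in MRL females, 7.64, 7.65 and 7.83 in SM males and 7.07, 7.15 and 7.33 in SM females. Its F1 females lay just below the MRL females. For this row F1 averaged 8.08 ± 0.04 in males and 8.14 ± 0.02 in females, whereas SM averaged 7.71 ± 0.11 in males and 7.19 ± 0.13 in females (SD, n = 3 each).

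By sex, the F1 departure from the parental mean passed the test in 0 of 85 members in males, beside 0.0262% of all transcripts. At an unadjusted p under 0.05 there were 10 members in males (11.8%), beside 7.76% of all transcripts, and without F1 male 1146 there were 0 called members and 6 at an unadjusted p under 0.05. In females it passed in 8 of 85 members, beside 2.78% of all transcripts. At an unadjusted p under 0.05 there were 25 members in females (29.4%), beside 29.6% of all transcripts. In 7 of the 8 called members F1 was higher, all 4 rows of the near-identical set among them (0.42 to 0.49), and the eighth was ENSMUST00000015234_at, lower by 0.50 ± 0.11 (SE, adjusted p = 0.0411). Without F1 male 1146 there were 10 called members in females, beside 4.21% of all transcripts. The difference of the departures, male minus female, passed in 3 members of 85, beside 0.323% of all transcripts, and in 5 without F1 male 1146, beside 2.69% of all transcripts. All 3 were rows of that set, with values of -0.43 to -0.48 (limma, adjusted p = 0.0464). Array spread was the highest of the 6 groups in F1 females. With the slope on it subtracted, 0 members passed in females and 0 in the male minus female difference.

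In F2 the members were spread unevenly. The residual variance of F2, with sex and batch removed, was divided by the variance within the F1, MRL and SM groups, and this ratio had a median of 1.66 over the members, against 1.29 over all transcripts. It exceeded 4 in 16 members (12 distinct profiles when rows correlated at 0.95 or more are counted once), beside 1.9% of all transcripts, and lay under 1 in 26, beside 28.2% of all transcripts. A choice that asks for separated strains favours a low spread within groups, so the comparison with all transcripts is a description only. Without the 5 libraries with a low score for their labelled sex the median was 1.87.

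The ratio was lower in the largest F2 correlation block, 25 rows joined at an r of 0.5, than in the rest. In the 25 members of that block it had a median of 0.84 and a range of 0.41 to 1.47, with 18 under 1, beside 28.2% of all transcripts. In the other 60 members the median was 2.37 and the range 0.52 to 18.4. The ratio was above 2 in 38 of them (30 distinct profiles), beside 6214 of all 34406 transcripts. Relative to the strain difference, the F2 SD was 24.3% (median, 17.9% to 33.5%) in the largest block and 32.1% (19.7% to 65.9%) in the others. A single additive autosomal locus with no other variation would give 35.4%. The within-group SD was 26.9% of the strain difference in the largest block and 20.6% in the others. One animal moved the value of the largest block: without SM female 3 its median ratio was 1.58, against 2.75 in the other members. Without the 5 libraries with a low score for their labelled sex, the median ratio was 0.77 in the largest block and 2.90 in the others.

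**Figure D3:**
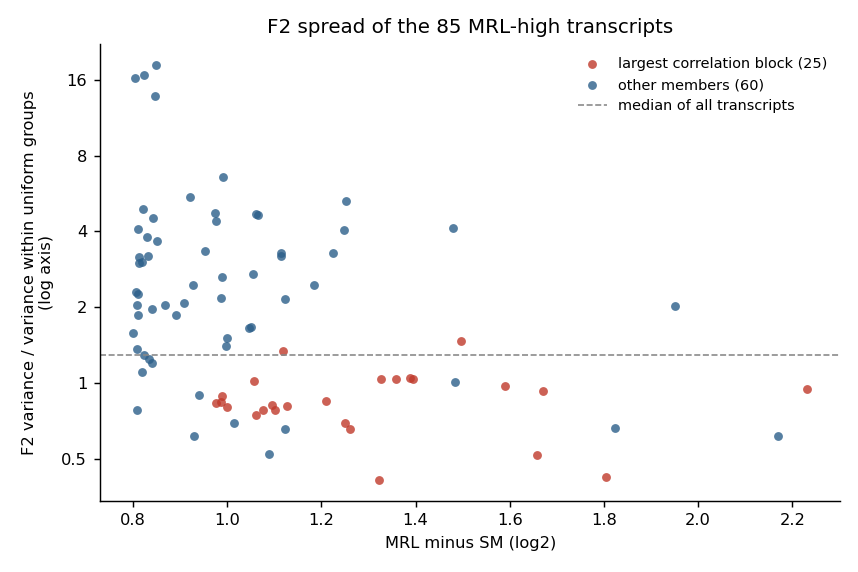
Ratio of F2 variance to the variance within F1, MRL and SM groups (vertical axis, log scale) against the MRL minus SM difference (horizontal axis, log2) for the 85 members; red points are the largest correlation block, blue points the other members, and the dashed line is the median of all transcripts. The red points lie between 0.41 and 1.47. Above 2 lie 38 blue points (30 distinct profiles), beside 6214 of all 34406 transcripts.

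The highest ratios were those of ENSMUST00000111496_at (18.4) and ENSMUST00000086783_at (16.7), 2 of the 4 near-identical rows. ENSMUST00000111496_at ran from 7.25 to 8.70 (median 8.06) in F2 males and from 6.82 to 8.63 (median 7.92) in F2 females. This range was wider than that of the F1, MRL and SM animals together within either sex, though F2 has far more animals. The F2 SD of this row was 0.37, against 0.09 within groups. The lowest ratios were those of ENSMUST00000034015_at (0.41) and ENSMUST00000081848_at (0.42), both in the largest block. ENSMUST00000034015_at measured 11.45, 11.39 and 11.34 in F1 males, 11.96, 11.45 and 11.98 in F1 females, 11.60, 11.97 and 11.61 in MRL males, 12.09, 11.61 and 11.75 in MRL females, 9.75, 10.74 and 10.21 in SM males, and 10.93, 11.59 and 9.46 in SM females. SM female 3 was the lowest of the 18 animals, SM female 2 lay just below the lowest MRL animal, and the F2 SD was 0.34, against a within-group SD of 0.53.

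The shape of the F2 distributions also differed among members. With gaussian mixtures of a common variance compared by the Bayesian information criterion, 35 members were best described by more than 1 component (25 by 2 and 10 by 3), beside 10.9% of all transcripts. In 23 of them each component held at least 10% of the animals, beside 1.42% of all transcripts, and these 23 were 18 distinct profiles. The largest block held 4 of the 35 and 0 of the 23, and the other members held 31 and 23. The median excess kurtosis, which is 0 for a gaussian and negative for flat or split distributions, was 0.66 in the largest block and -0.19 in the others. Without the 5 libraries with a low score for their labelled sex, 36 members had more than 1 component and 24 had well-filled ones.

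A single segregating autosomal locus would place 25% of F2 animals in each homozygous class and 50% in the heterozygous class. In the 8 members with 3 well-filled components, the upper component held 19.6% to 29.4% of animals, the middle one 46.7% to 59.2% and the lower one 18.3% to 27.4%. The distance between their outer components was 80.6% to 112% of the MRL minus SM difference (median 102%). In the 15 members with 2 well-filled components the smaller one was the lower one every time, with 10.9% to 37.1% of the animals (median 26.2%), and the components lay apart by 39.2% to 78.1% of the strain difference. The 8 and 15 rows together were 18 distinct profiles, so these are not counts of independent rows. No share over all transcripts is given for either kind or for the side of the smaller component. No genotypes were used here, so the components are descriptions of the values.

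The greatest gains of a mixture over a single component were those of ENSMUST00000026924_at (200.1 units of the criterion, 3 components) and ENSMUST00000001544_at (129.5 units, 3 components). In ENSMUST00000001544_at the components held 26.6%, 49.7% and 23.7% of F2 animals, from high to low, at 0.57, 0.07 and -0.80 (log2) from the F2 mean. Its F1 animals measured 8.98, 8.80 and 8.43 in males and 9.66, 9.04 and 8.96 in females, against 9.38, 9.20 and 8.96 in MRL males, 8.86, 9.30 and 9.33 in MRL females, 7.72, 7.97 and 7.95 in SM males and 8.06, 8.18 and 7.81 in SM females. The F1 animals thus overlapped the MRL animals and lay above all SM animals. The F1 departure in females was 0.63 ± 0.15 (SE, limma, adjusted p = 0.0451).

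ENSMUST00000026924_at had another pattern. Its components held 67.3%, 29.1% and 3.55% of F2 animals, at 0.24, -0.33 and -1.81 from the F2 mean, and 42.9% of F2 animals were nearest to the F1 level, 53.5% to MRL and 3.55% to SM. Its F1 animals measured 8.96, 9.76 and 9.60 in males and 7.39, 9.97 and 9.70 in females. F1 female 1145 was within the SM range, while the other 5 F1 animals were at 8.96 or more, above the highest SM animal at 7.91. The SD was 1.42 among the F1 females (n = 3), against 0.06 to 0.22 in the MRL and SM groups, and the ratio of F2 variance to within-group variance was 0.62.

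In ENSMUST00000050487_at and ENSMUST00000097563_at the upper component was the small one, with 4.29% and 4.31% of F2 animals at 1.49 and 1.46 above the F2 mean. ENSMUST00000050487_at ran from 6.71 to 9.96 in F2 males and from 6.83 to 10.87 in F2 females, so its highest F2 animals lay far above the highest MRL animal at 8.04. Over all 85 members, the share of F2 animals in or above the MRL range had a median of 17.0% (1.77% to 44.0%), and the share in or below the SM range a median of 17.7% (2.48% to 61.3%).

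**Figure D4:**
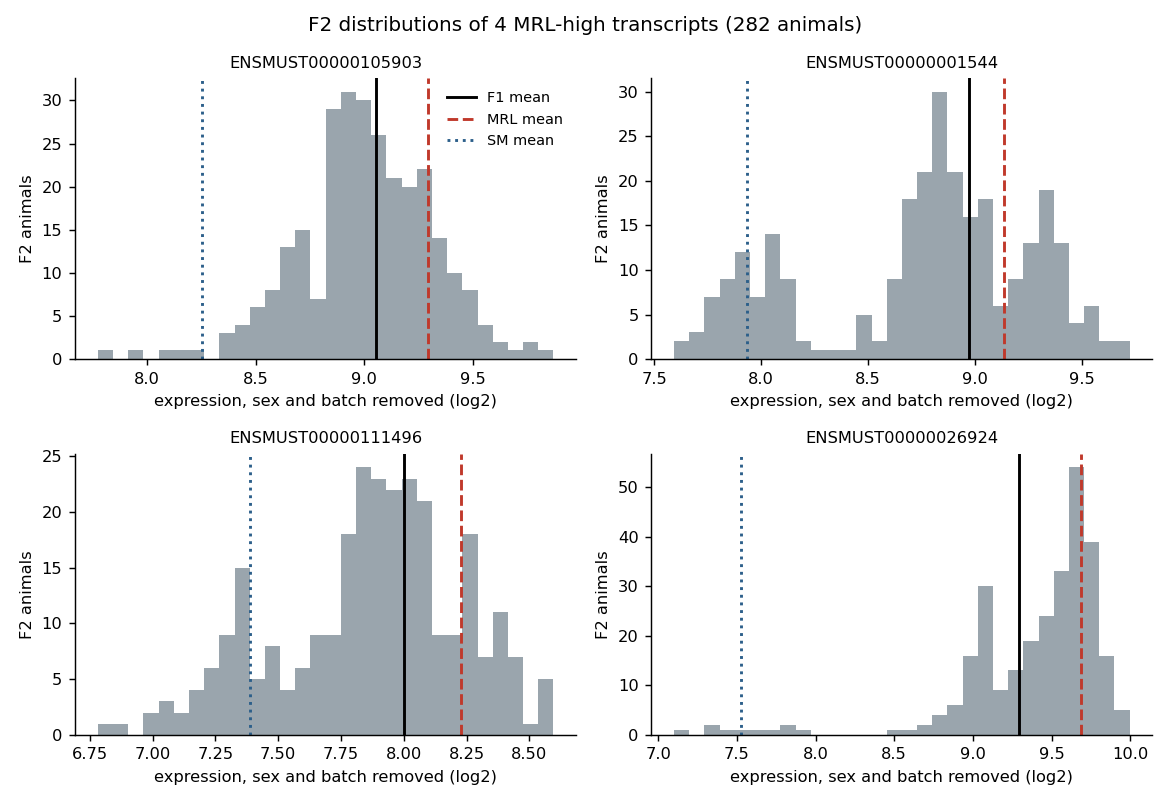
Number of F2 animals (vertical axis) by expression with sex and batch removed (horizontal axis, log2) for 4 members, with the F1, MRL and SM means as vertical lines. ENSMUST00000105903_at of the largest block has 1 component, ENSMUST00000001544_at has 3 components holding 26.6%, 49.7% and 23.7% of animals, ENSMUST00000111496_at has a lower component with 23.9%, and ENSMUST00000026924_at has a lowest component with 3.55%.

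Correlations among the members across the 282 F2 animals, with sex and batch removed, were mostly weak. Of 3570 pairs, 346 (9.69%) reached an r of 0.5, the median r was 0.08 and the lowest was -0.29. Average linkage at an r of 0.5 gave 7 blocks of at least 3 members that held 47 members, 9 pairs, and 20 members alone. Many close correlations came from near-identical rows: at an r of 0.95 the 85 rows were 61 distinct profiles, and 16 sets of 2 to 4 rows held 40 members. Whether such rows share probes or a gene could not be read from the files, so they are not independent measurements. Pairwise correlations in F2 males and in F2 females followed each other (r = 0.87 over pairs, which share animals and arrays).

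**Figure D5:**
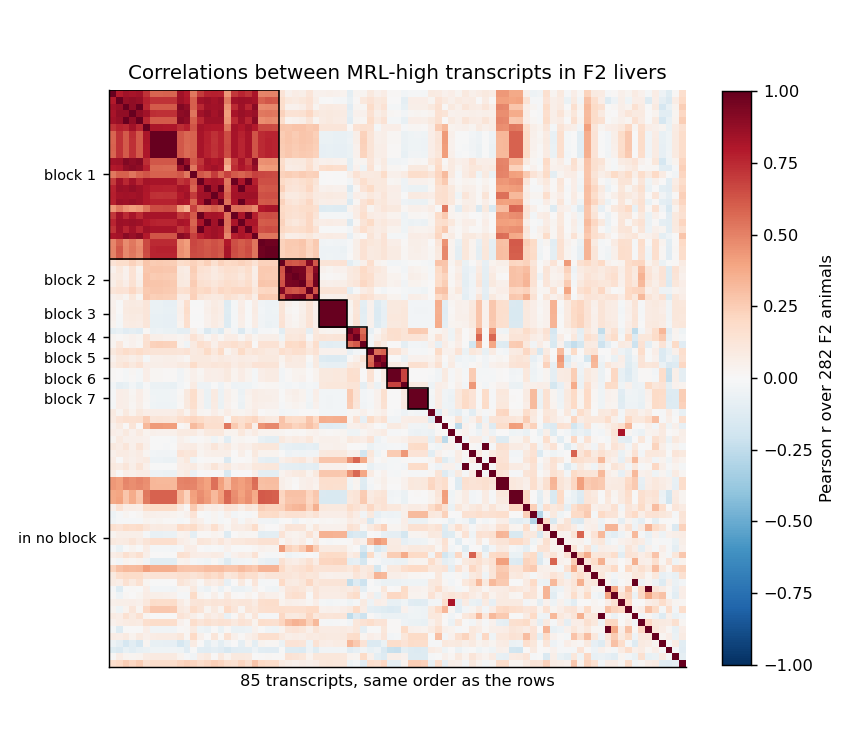
Pearson correlations (colour scale from -1 to 1) between the 85 members over 282 F2 animals, rows and columns in the same order, with the 7 blocks outlined. The largest block holds 25 members at a median r of 0.76, and the median r over all pairs is 0.08.

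The largest block had 25 members in 15 distinct profiles, with a median r of 0.76 (0.35 to 0.9995). The same median was 0.76 in F2 males alone and 0.75 in F2 females alone, and it ran from 0.58 to 0.85 within the 13 batches that held at least 10 F2 animals. In the 18 F1, MRL and SM animals, as deviations from their group means, it was 0.83 with every animal included. SM females 3 and 2 deviated most over the block (medians of -0.88 and 0.63 from the other 2 of their group). The r was not taken without them. Batch was not removed in the r of these 18 animals, here or for the blocks below, so shared batch shifts can enter it. The mean over the block correlated with array spread at r = 0.21 in F2. The members most correlated with the rest of the block were ENSMUST00000105905_at (mean r 0.79) and ENSMUST00000105903_at (0.78). The block holds ENSMUST00000100285_at, the member with the greatest strain difference, and its strain differences (0.98 to 2.23, median 1.25) were larger than those of the other members (median 0.93).

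The mean log2 level of the largest block was 9.27, 9.18 and 9.32 in F1 males and 9.49, 9.22 and 9.83 in F1 females. It was 9.75, 9.86 and 9.56 in MRL males, 9.97, 10.18 and 9.71 in MRL females, 8.06, 8.62 and 8.41 in SM males, and 8.83, 9.24 and 8.07 in SM females. No SM animal reached an MRL animal, but the 3 SM females ran from 8.07 to 9.24. In SM female 3 all 25 members lay below the mean of the other 2 SM females (median deviation -0.88), in F1 female 1150 all 25 lay above the other 2 F1 females (0.44), and in F1 female 1149 all 25 lay below (-0.40). In the other 60 members those 3 animals deviated by a median of -0.04, -0.02 and 0.01. The F1 position over the block had a median of 0.70, and by F1 female it was 0.66, 0.39 and 0.87 in 1145, 1149 and 1150.

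Outside the members, 9 transcripts correlated with the mean of the largest block at an r of 0.7 or more, and all 9 were higher in MRL, by 0.47 to 0.87 (median 0.67). Of these, 8 were under the difference threshold and 2 overlapped between the strains in a sex. At an r of 0.5 or more there were 45 such transcripts, 44 of them higher in MRL, and none reached -0.5. The share of all transcripts higher in MRL was not taken, and near-identical rows outside the members were not counted once. The highest correlation between a block member and another member was 0.61.

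Block 2 had 6 members in 4 profiles, with a median r of 0.65 in F2 (0.61 in males and 0.71 in females) and 0.91 in the 18 F1, MRL and SM animals. Its leading members were ENSMUST00000106684_at (mean r 0.83) and ENSMUST00000106683_at (0.82). Like the largest block it had low variance ratios (0.52 to 0.89), and the means of the 2 blocks correlated at 0.23 in F2. Its mean level was 8.72, 9.11 and 9.06 in F1 males, 8.91, 9.05 and 8.80 in F1 females, 9.47, 9.60 and 9.52 in MRL males, 9.42, 9.58 and 9.27 in MRL females, 8.25, 8.51 and 8.66 in SM males, and 8.06, 8.89 and 7.56 in SM females, where SM female 3 was the lowest of all 18. The SD of this level was 0.67 in SM females, against 0.06 to 0.21 in the other groups (n = 3 each). The r of block 2 in the 18 animals and its variance ratios are not given without SM female 3.

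Block 3 was the set of 4 near-identical rows named above, led by ENSMUST00000086783_at (mean r 0.997) and ENSMUST00000111496_at (0.996), with ENSMUST00000077282_at and ENSMUST00000059255_at. Its ratios (13.8 to 18.4) were the highest among the members, its F2 SD was 43.1% to 45.3% of the strain difference, and all 4 rows had more than 1 component. Its mean level was 8.03, 8.08 and 7.98 in F1 males and 8.08, 8.09 and 8.10 in F1 females, against 8.37, 8.39 and 8.31 in MRL males, 8.13, 8.10 and 8.16 in MRL females, 7.60, 7.61 and 7.80 in SM males and 7.05, 7.11 and 7.31 in SM females. Animals of 1 group lay close together, with SDs of 0.01 to 0.13 (n = 3 each), while the F2 SD of the block mean was 0.34 in males and 0.39 in females.

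Blocks 4, 5 and 6 had 3 members each and joined rows that were not all near-identical. Block 4, led by ENSMUST00000114635_at (mean r 0.74) and ENSMUST00000024823_at (0.71), had variance ratios of 1.58 to 6.57, and all 3 members had more than 1 component. Its median r was 0.62 in F2 and 0.23 in the 18 F1, MRL and SM animals. Block 5, led by ENSMUST00000037820_at (0.75) and ENSMUST00000030090_at (0.73), had ratios of 2.04 to 3.28, a median r of 0.59 in F2 and 0.43 in the 18 animals, and more than 1 component in all 3 members. Block 6, led by ENSMUST00000112818_at and ENSMUST00000035148_at (0.84 each, a near-identical pair), had ratios of 2.26 to 4.71, a median r of 0.68 in F2 and 0.08 in the 18 animals. In these 3 blocks the correlation was higher among F2 animals than among animals of 1 genotype. However, 18 animals give an imprecise r, and batch was removed only in F2.

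These 3 blocks also had opposite partners outside the members. At an r of -0.5 or lower there were 23 transcripts for block 4 (lowest r -0.81), 15 for block 5 (-0.61) and 15 for block 6 (-0.72), against 0 for the largest block and block 2 and 1 for block 3. At an r of 0.5 or more there were 12, 23 and 15 transcripts, all of them higher in MRL. The nearest, ENSMUST00000079924_at, correlated with block 4 at 0.86 and was higher in MRL by 0.60, under the threshold.

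Block 7 was another set of 3 near-identical rows, led by ENSMUST00000102920_at and ENSMUST00000109823_at (mean r 0.998 each). Its variance ratios were 1.20 to 1.29, each row had 1 component, and the F1 position was low, at 0.36 to 0.39. Its mean level was 8.77, 8.62 and 8.39 in F1 males and 7.64, 8.10 and 8.45 in F1 females, against 9.21, 9.05 and 8.57 in MRL males, 8.42, 8.77 and 9.03 in MRL females, 7.92, 8.28 and 8.39 in SM males and 7.67, 7.98 and 7.81 in SM females. The F1 animals overlapped both strains. ENSMUST00000109822_at, just outside the threshold at 0.80, correlated with this block at 0.996.

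Of the 9 pairs outside the blocks, 6 were near-identical rows (r 0.991 to 0.999), and the others had r of 0.82, 0.59 and 0.58. The means of different blocks correlated at -0.06 to 0.23, and the highest of these was that of the largest block with block 2. Without the 5 libraries with a low score for their labelled sex the blocks again held 47 members. The largest again held 25, and all 25 were the same rows.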

How the data were processed

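Total RNA of single livers was measured on 1 array per animal. The deposited log2 values per Ensembl transcript were made by the authors with RMA (affy, R 2.11), as the submitters' processing notes name them. RMA corrects the background, quantile-normalizes probe intensities and combines probes by median polish. The number of arrays limits the precision. Groups were taken from the labels' strain, generation and sex. All 34406 transcripts of the 18 F1, MRL and SM animals entered 1 limma fit (3.58.1, R 4.3.3, lmFit and eBayes) with 6 group means and Benjamini-Hochberg adjustment, at a threshold of 0.05. F2 values were residuals after sex and batch in 282 animals (numpy 2.4.6, scipy 1.17.1). The members, blocks and tests were chosen with earlier results of these data known. Named transcripts were the 2 with the greatest strain difference, the 2 highest and 2 lowest F1 positions and variance ratios, those called in F1, the 2 greatest mixture gains, the 2 leading rows of each block, and those beside the threshold, and other rows were named after their values were seen. Replicate numbers shared by MRL and SM animals did not pair them (correlations of -0.08 to 0.22). Lists of gene symbols and cell type markers were not applied, since 0 identifiers could be named. Alternatives were other scalings, batch terms, thresholds, linkages and leaving out single animals. The limma and mixture steps were tested on simulated data.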

Additional observations from a re-analysis of the deposited data

Results flagged for a closer look

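In 3 rows of the near-identical set the F1 departure from the parental mean differed between the sexes by limma's test of the difference itself (male minus female). The difference was -0.48 in ENSMUST00000059255_at, -0.43 in ENSMUST00000086783_at and -0.43 in ENSMUST00000111496_at, each with an adjusted p of 0.0464. In ENSMUST00000059255_at the departure was 0.01 ± 0.06 in males and 0.49 ± 0.06 in females (SE), and in ENSMUST00000111496_at it was 0.02 ± 0.06 in males and 0.45 ± 0.06 in females. The 4th row of the set, ENSMUST00000077282_at, gave -0.40 and an adjusted p of 0.0532. Since the rows correlate at 0.99 or more in F2, they amount to 1 observation. Array spread averaged 1.26 in F1 males and 1.31 in F1 females, and with its slope subtracted the differences were -0.15, -0.14 and -0.14, none of which passed (limma, adjusted p = 0.9535 and 0.9543). None passed after the F2 batch effects were subtracted (limma, adjusted p of 0.1093 to 0.1267), and leaving out any 1 of 13 of the 18 animals left no call, F1 female 1145 (adjusted p = 0.1126) and F1 male 1152 among them. Without F1 male 1146 the 3 rows passed, at an adjusted p of 0.0392 to 0.0436.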

How the results depend on the processing

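The count of members with more than 1 F2 component, 35, was 24 to 42 under the alternatives run. All 85 members passed for MRL minus SM also with a replicate block of MRL and SM animals (85 members, 2375 transcripts in all) and without any 1 animal, and 84 passed with batch as a fixed term, though the rule that chose the members used this contrast. For F1 minus the parental mean, 2 calls became 0 with arrays centred, quantile normalization, the array spread slope subtracted, F2 batch effects subtracted or a random replicate block, and leaving out 1 animal gave 0 to 4, with 4 without SM female 3, SM male 8 or F1 male 1152. In females 8 calls became 5 with F2 batch effects subtracted and 0 with the spread slope subtracted or batch as a fixed term (3 residual degrees of freedom), and leaving out 1 animal gave 4 to 18, the highest without SM female 2, where 10.3% of all transcripts were called. For the male minus female departure, 3 calls became 0 under the same 3 settings, and leaving out 1 animal gave 0 to 10, the highest without SM male 6, where 15.3% of all transcripts were called. The median of this difference over the members was -0.09, but 0.09 with the spread slope subtracted, 0.01 without SM female 3 and 0.56 with batch as a fixed term, where 2 members passed in males (median departure 0.44, against 0.03). The analyses of F1 by sex, of near-identical rows and of correlations by batch were chosen after seeing the data. The median F1 position of 0.62 was 0.554 on the unlogged scale, 0.699 for members differing by at least 1.0, 0.569 at a threshold of 0.6 and 0.577 with the spread slope subtracted, and leaving out 1 animal gave 0.589 to 0.640. The median variance ratio of 1.66 was 1.70 with no batch term and 1.81 with the spread slope subtracted. It was 1.87 without the 5 libraries with a low score for their labelled sex. For members differing by at least 1.0 it was 1.02, and at a threshold of 0.6 it was 1.80. Leaving out 1 animal gave ratios of 1.53 to 2.21, the highest without SM female 3. Counting near-identical rows once left 25 profiles in 4 blocks, 15 of them in the largest, against 47 members in 7 blocks. The cause of these changes was not tested. Linkage, threshold, sex and Spearman alternatives gave blocks holding 41 to 51 members, the largest with 20 to 27. Groups of 3 animals limit every F1 statement.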
